A study of Homo sapiens with 65 samples.

Results

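Expression of 37 homeobox genes of the HOXB, HOXC and HOXD clusters, the CDX family and the MEIS and PBX families was followed during directed differentiation of human embryonic stem cells. The genes were a named list matched by symbol to the count table, and all 37 were found among its 58302 genes. HOXC5 has 2 entries there. The entry used held 798 fragments over all libraries, and the entry left out held 1255. The 37 genes comprise 10 HOXB, 9 HOXC and 9 HOXD genes, 3 CDX genes, 3 MEIS genes and 3 PBX genes. The cells were H9, an established human embryonic stem cell line, carrying the reporters written in the labels as SOX17 mCHERRY/w and RUNX1C GFP/w. These reporters were in every group. The wild-type line (WT) was compared with a derivative whose RUNX1 DNA-binding domain was deleted by CRISPR (RUNX1 -/-, here KO). The mesoderm protocol was aimed at cells like those of the aorta-gonad-mesonephros region, where blood stem cells arise. It used STAPEL medium with BMP4, ACTIVIN A, VEGF, SCF and FGF2 from day 0 to 4, SB431542 and CHIR 99021 from day 2 to 4, and VEGF, SCF, FGF2 and IGF2 from day 4 to 8. SB431542 blocks ACTIVIN and NODAL receptors, and CHIR 99021 activates Wnt signalling by inhibiting GSK3. The endoderm protocol, in WT only, used ACTIVIN A with CHIR and the PI3-kinase inhibitor PI-103 on day 0 and ACTIVIN A with the BMP receptor inhibitor DMH-1 from day 1 to 7.

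Mesoderm cultures were unsorted on days 0, 2 and 4, with 4 WT and 4 KO libraries a day. On day 7, CD34+ CD43- cells were sorted into SOX17+ (4 WT, 4 KO) and SOX17- (4 WT, 3 KO) fractions. CD34 marks endothelium and blood progenitors, and CD43 marks cells committed to blood. On day 12 the sorted CD34+ fractions were SOX17+ CD43- (4 WT, 4 KO), SOX17+ CD43+ (2 WT), SOX17- CD43+ (3 WT) and SOX17- CD43- (1 KO). Endoderm cultures were unsorted on days 0, 2, 4 and 7, with 3 libraries a day. By library number, unsorted mesoderm, endoderm and sorted libraries form separate ranges. The exception is endoderm day 4 replicate 3, which is numbered next to the sorted libraries. What these ranges stand for is not stated. KO libraries of days 2 and 4 are KO by title, whereas their genotype label does not name the deletion. Whether the KO line is 1 clone, and whether replicates were separate cultures, is not stated, so p-values measure the spread between these libraries, which may be technical.

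HOX genes lie in clusters and are switched on in the order in which they lie, from the 3′ end (group 1) to the 5′ end (group 13). The order in time is matched by an order along the body, so that group 13 genes mark the tail end of the embryo. CDX proteins are homeobox factors that act below Wnt and FGF signals and activate central and posterior HOX genes. MEIS and PBX proteins belong to the TALE class of homeobox proteins and bind DNA together with HOX proteins, which raises the specificity of binding. In blood formation, several HOX genes and MEIS1 are known for their activity in stem and progenitor cells.

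On GRCh38 the HOXB genes spanned chromosome 17 from 48528526 (HOXB1) to 48729178 (HOXB13), on the minus strand. HOXC genes spanned chromosome 12 from 53938765 (HOXC13) to 54056030 (HOXC4), and HOXD genes chromosome 2 from 176092891 (HOXD13) to 176190907 (HOXD1), both on the plus strand. Exons of another gene overlapped those of 14 of the 37 genes on the same strand and 12 on the opposite strand, as with HOXB3 over HOXB4. The use of strand in counting is not stated, so reads of such neighbours may not be separable.

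Promoter sequence from RefSeq (GRCh38.p14, the 250 bases before a gene's start) was given for 19 of the 37 genes, and HOXC4 and HOXC5 share 1 of these sequences. It was searched on both strands for the cores TTTATG (CDX), CTTTGA (TCF/LEF, the DNA-binding partners of Wnt signalling), TGATNNAT (PBX with HOX) and TGACAG (MEIS). The CDX core was found in 1 of these genes, the TCF/LEF core in 4, the PBX and HOX core in 3 and the MEIS core in 1. Among 34788 distinct promoters of that length the shares were 9.65%, 11.2%, 6.49% and 13%. The 5 sequences below are shown because they hold a CDX or TCF/LEF match in genes whose levels moved between days 0 and 12. Capitals mark the matches, 5′ to 3′ on the gene's own strand.
CDX2, chr13:27969316-27969565, minus strand: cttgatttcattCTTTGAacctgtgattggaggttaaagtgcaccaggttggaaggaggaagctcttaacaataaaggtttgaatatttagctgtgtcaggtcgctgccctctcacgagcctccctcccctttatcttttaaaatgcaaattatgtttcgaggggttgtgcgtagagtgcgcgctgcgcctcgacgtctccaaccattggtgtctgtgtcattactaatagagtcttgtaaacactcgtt
CDX4, chrX:73446803-73447052, plus strand: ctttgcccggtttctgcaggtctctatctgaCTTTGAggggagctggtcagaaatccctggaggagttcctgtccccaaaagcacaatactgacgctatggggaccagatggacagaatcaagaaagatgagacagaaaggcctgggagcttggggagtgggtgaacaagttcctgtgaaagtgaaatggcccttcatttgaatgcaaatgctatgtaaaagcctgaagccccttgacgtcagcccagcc
HOXB1, chr17:48531012-48531261, minus strand: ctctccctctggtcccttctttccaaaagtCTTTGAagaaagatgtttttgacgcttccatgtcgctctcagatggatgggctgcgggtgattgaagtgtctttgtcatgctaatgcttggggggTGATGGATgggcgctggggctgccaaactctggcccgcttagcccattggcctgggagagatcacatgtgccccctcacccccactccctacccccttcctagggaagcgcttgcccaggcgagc
HOXD12, chr2:176099545-176099794, plus strand: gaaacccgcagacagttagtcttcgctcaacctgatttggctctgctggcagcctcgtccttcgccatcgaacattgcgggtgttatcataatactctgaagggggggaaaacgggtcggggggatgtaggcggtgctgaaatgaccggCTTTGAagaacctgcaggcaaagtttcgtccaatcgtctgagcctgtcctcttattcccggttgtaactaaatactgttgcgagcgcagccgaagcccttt
HOXD8, chr2:176129455-176129704, plus strand: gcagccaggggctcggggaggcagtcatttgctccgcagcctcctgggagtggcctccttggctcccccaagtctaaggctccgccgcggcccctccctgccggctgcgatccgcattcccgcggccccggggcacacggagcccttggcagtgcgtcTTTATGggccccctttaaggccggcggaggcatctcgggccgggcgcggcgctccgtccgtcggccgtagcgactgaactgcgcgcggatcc
CDX2, CDX4, HOXB1 and HOXD12 hold CTTTGA, starting 238, 219, 220 and 101 bases before the start. HOXB1 also holds a match to TGATNNAT, 125 to 118 bases before the start, and HOXD8 holds TTTATG, 92 to 87 bases before it. A match is a description of these letters, and no binding was measured.

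Levels within a gene are given as CPM, counts scaled to a common library size after TMM scaling. Library totals ran from 10366048 to 19081031 fragments, with a median of 15837038. RUNX1 counts, which include exons outside the deletion and so do not show it, were 87.2 to 148 CPM in WT and 27.2 to 41.1 in KO SOX17+ libraries of day 7. On day 2 mean RUNX1 was 10.7 CPM in WT and 10.2 CPM in KO, and on day 4 the ranges overlapped, at 27 to 68.5 and 3.05 to 65.3 CPM, so RUNX1 counts do not set apart the KO libraries of these days. Sorted fractions carried their gates: mean SOX17 was 176 CPM in WT SOX17+ and 46.4 CPM in WT SOX17- libraries of day 7. SPN, which encodes CD43, was 2.42 CPM in day 12 SOX17+ CD43- and 412 CPM in SOX17- CD43+ libraries. Libraries of 4 samples stood apart. In KO day 2 replicate 4, HOXB genes and CDX4 were low while CDX1 and CDX2 were within the range of the other 3. In WT day 4 replicate 3 and KO day 4 replicate 4, CDX2 was high and summed mesenchymal markers were the lowest of their groups, 1400 and 1900 CPM against up to 7470 and 9170. WT day 7 SOX17- replicate 4 had high HOXC genes, with an endothelial marker sum of 8240 CPM against up to 14400 in its group. Results that rest on them are given with and without them.

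**Figure D1:**
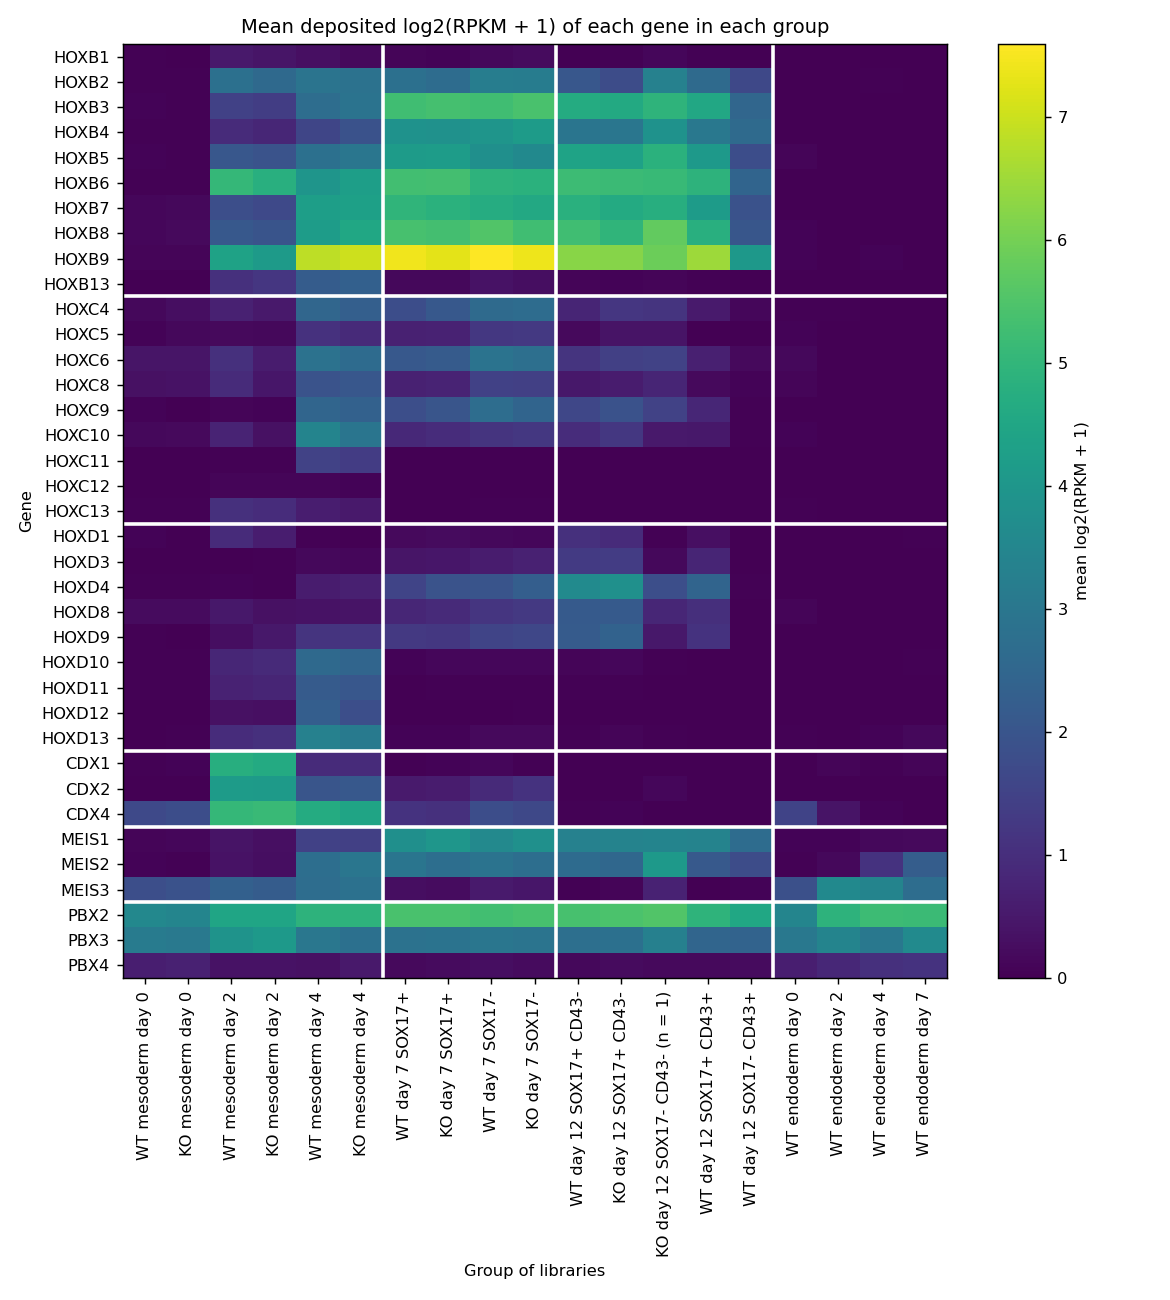
Mean deposited log2(RPKM + 1) for each of the 37 genes (rows) in each of the 19 groups (columns, with white lines between unsorted mesoderm, day 7, day 12 and endoderm groups). The HOX rows are near 0 on day 0 and in all endoderm groups, HOXC10, HOXC11 and HOXD10 to HOXD13 are brightest in unsorted day 4 mesoderm, and HOXB9 is the brightest row in unsorted mesoderm of day 4, in all day 7 groups and in the day 12 SOX17+ groups.

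Of the 37 genes, 36 reached a group mean of 1 CPM or more in at least 1 group. The exception was HOXC12, with 48 fragments in all 65 libraries and a highest group mean of 0.215 CPM. Between genes, levels can be compared only per length, as in the deposited log2(RPKM + 1) values. On that scale the highest mean of any group was that of HOXB9, the most 5′ HOXB gene before the gap to HOXB13, at 7.59 in WT SOX17- cells of day 7. HOXB1, at the 3′ end, never passed 0.53.

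The summed HOX transcripts of the 3 clusters set the stages apart. In WT mesoderm they came to 2.55 to 8.85 CPM on day 0, 138 to 269 CPM on day 2 and 440 to 907 CPM on day 4. SOX17+ cells held 939 to 1230 CPM on day 7 and, without CD43, 612 to 755 CPM on day 12. SOX17- CD43+ blood cells held 71.5 to 182 CPM. In endoderm the highest library was 2.28 CPM on day 0, and the 3 libraries of day 7 held 3, 10 and 13 HOX fragments. No 2 neighbouring groups in the WT mesoderm series from day 0 to SOX17+ day 7 overlapped, and neither did blood cells and endothelium of day 12.

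Undifferentiated cells held almost no HOX transcripts. CDX4 was the exception among the CDX genes, at 2.27, 4.198, 3.01 and 4.01 CPM in the 4 WT libraries of day 0. HOXC6 was present at 0.601, 2.52, 0.784 and 1.26 CPM. The TALE genes were already expressed, with PBX2 at 47.1 ± 9.44 (SD, n = 4) CPM and PBX3 at 36.2 ± 6.86 (SD, n = 4) CPM.

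On day 2 of the mesoderm protocol most of these genes rose in WT cells. By edgeR 27 of the 34 genes tested were higher and 1 lower, where 45.1% of all 21612 genes tested were called. The median log2 fold change was 3.97 against -0.002 over all genes. Genes silent on day 0 passed the filter on low counts only through later days, so these counts are a description. All 3 CDX genes and all 10 HOXB genes were among those higher. Summed definitive endoderm markers went from 51 to 99.6 CPM on day 0 to 614 to 2380 CPM on day 2, highest in replicate 2, which was the lowest for CDX1 and CDX2. Their part in these values was not tested.

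CDX2, which specifies posterior identity, gave 2 fragments in all WT libraries of day 0. It stood at 131, 35, 78.5 and 65.4 CPM in the 4 libraries of day 2, a ratio of 2390 (95% counting interval 660 to 19700), with edgeR adjusted p = 2.12e-06. CDX1 reached 80.2, 24.1, 40.5 and 54.3 CPM, and its log2 fold change was 9.31 ± 0.95 (SE, edgeR adjusted p = 4.62e-08). Both genes were above every day 0 library in each day 2 library, and replicate 1 was the highest for both. CDX4 rose from its low start to 58.2, 40.04, 36.8 and 65.05 CPM, again without overlap.

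Within the HOXB cluster the day 2 rise reached from one end to the other. HOXB6, of the central part of the cluster, stood at 76.3, 106, 58.2 and 104 CPM, a ratio of 1640 (95% counting interval 561 to 7950) over day 0 with edgeR adjusted p = 1.94e-10. HOXB9 reached 49.9, 53.7, 31.7 and 75.4 CPM, a log2 fold change of 8.30 ± 0.59 (SE, edgeR adjusted p = 1.81e-10). Replicate 3 was the lowest of the 4 for both genes, and no library overlapped those of day 0. HOXB13, a group 13 gene of the body's tail end, was not counted in any WT library of day 0. On day 2 it stood at 5.10, 3.10, 3.56 and 3.01 CPM, at least 74.1-fold higher than the floor of 3 counts over the group (edgeR adjusted p = 1.75e-06). HOXB1, which sets hindbrain segment identity, was highest of all groups on day 2 but low, at 1.56, 1.16, 0.634 and 1.13 CPM.

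Of 8 HOXC genes tested 5 were called higher on day 2, and of 7 HOXD genes 4, where 4799 of all 21612 genes were called higher. Genes silent on day 0 passed the filter only through later days, so these counts are a description. HOXD13, a limb and genital gene at the 5′ end of its cluster, was not counted on day 0 and stood at 2.62, 2.04, 1.27 and 2.82 CPM on day 2, at least 42.6-fold higher (edgeR adjusted p = 8.03e-05). HOXC10, a gene of the lumbar level, was at 1.13, 2.23, 1.03 and 2.35 CPM. All 4 libraries were above day 0 for both genes. By position, 13 of 17 tested genes of groups 1 to 9 and 6 of 8 of groups 10 to 13 were called higher on day 2, with median log2 fold changes of 4.20 and 4.59.

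**Figure D2:**
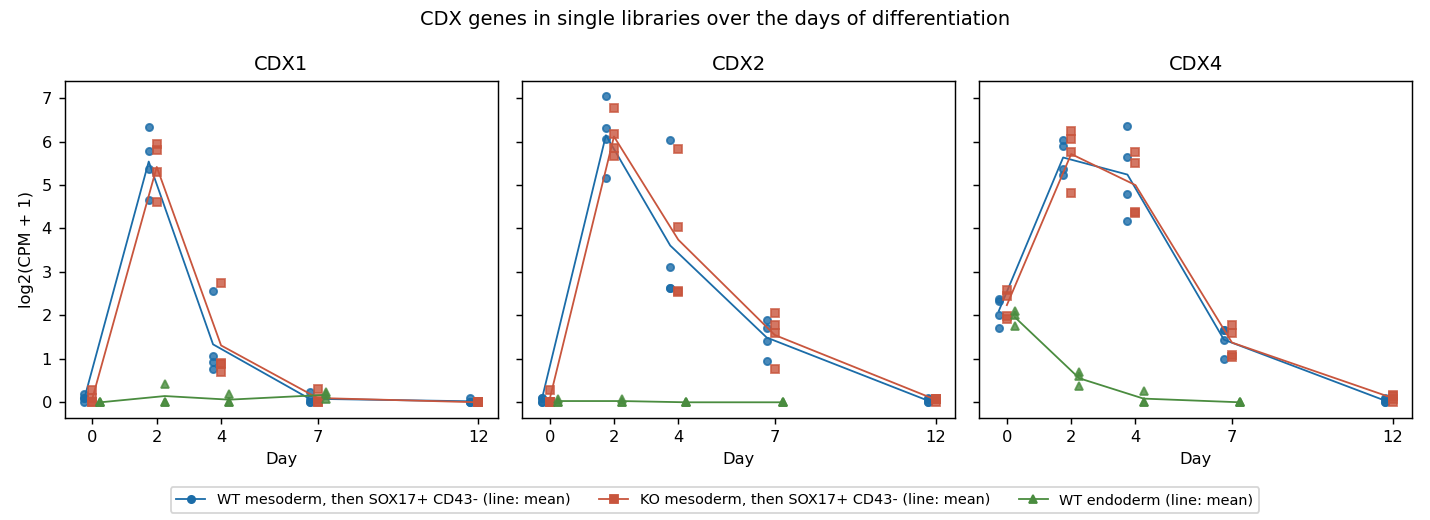
CDX1, CDX2 and CDX4 as log2(CPM + 1) (vertical axis) against day of differentiation, 1 point per library, with lines through the means of WT mesoderm, KO mesoderm (both SOX17+ CD43- cells on days 7 and 12) and WT endoderm. The mesoderm means peak on day 2, 1 WT and 1 KO library stay high for CDX2 on day 4, and endoderm points stay low.

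Among the cofactors MEIS1, MEIS2, MEIS3, PBX2 and PBX3 rose on day 2. PBX3 went from 26.2, 40.98, 40.2 and 37.2 CPM on day 0 to 63.95, 59.2, 57.8 and 74.6 CPM, without overlap. PBX4 was the only one of the 34 called lower, with a log2 fold change of -0.93 ± 0.36 (SE, edgeR adjusted p = 0.0402). That call was lost without WT day 0 replicate 2, 3 or 4, or day 2 replicate 2, 3 or 4, with the adjusted p up to 0.143. It was also lost with no filter, in a fit over all groups and with these groups alone (edgeR adjusted p up to 0.0846).

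A list of genes of the posterior axis and of Wnt and FGF signalling, which includes Wnt target genes, was counted on the same day. Of 19 genes tested 17 were higher and none lower, with a median log2 fold change of 5.5. Of all 21612 genes 4799 were called higher. Any part of these genes in the CDX and HOX values was not tested. Of the genes of retinoic acid supply and response, which regulate 3′ HOX genes, 6 of 13 rose and 2 fell. Of all genes 45.1% were called in either direction. ALDH1A2, which makes retinoic acid, rose by 5.96 ± 0.45 (SE) on the log2 scale, and DHRS3, which lowers retinoic acid by reducing retinaldehyde, fell by 3.15.

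Between days 2 and 4 most 5′ genes of HOXC and HOXD rose while CDX1 and CDX2 fell. Over all 34 genes tested 20 were higher and 5 lower, where 51.4% of all genes were called. The median was 1.84 against -0.006 over all genes. Of 8 tested genes of groups 10 to 13, 7 were higher and none lower, with a median log2 fold change of 3.17. HOXC13, the most 5′ HOXC gene, was not called. It stood at 2.41, 2.13, 3.17 and 2.54 CPM on day 2 and 3.24, 0.663, 0.474 and 1.13 CPM on day 4. Of 17 genes of groups 1 to 9, 10 were higher and 2 lower, with a median of 1.79. Some genes near 0 on day 2, such as HOXC9, HOXC11 and HOXD12, passed the filter on low counts only through day 4. These counts and medians are therefore a description. Summed mesenchymal markers were 474 to 549 CPM on day 2 and 1400 to 7470 CPM on day 4, and endothelial markers 137 to 204 and 1530 to 2430 CPM. Their part in the HOX values was not tested. Cells were unsorted, so more cells of a type and more RNA per cell cannot be told apart here or in the other comparisons of these bulk samples.

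HOXC11 stood at 11.6, 4.46, 3.44 and 6.27 CPM in the 4 WT libraries of day 4 and rose by 6.12 ± 0.86 (SE, edgeR adjusted p = 4.46e-06) on the log2 scale. HOXC10 stood at 51.02, 11.1, 25.2 and 16.6 CPM and rose by 3.96 ± 0.59 (SE, edgeR adjusted p = 8.99e-06). In both, replicate 1 was the highest, and all 4 were above day 2. HOXC9, a thoracic gene, stood at 10.01, 5.19, 8.83 and 7.75 CPM and rose by 5.88 ± 0.44 (SE, edgeR adjusted p = 5.13e-10).

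The 5′ HOXD genes followed. HOXD13 stood at 40.8, 8.32, 28.1 and 16.9 CPM on day 4 and rose by 3.42 ± 0.55 (SE, edgeR adjusted p = 4.27e-05). HOXD12, a limb gene next to it, stood at 14.8, 2.35, 3.73 and 4.30 CPM and rose by 4.09 ± 0.78 (SE, edgeR adjusted p = 0.000243). Replicate 1 was the highest for both and stood well apart for HOXD12, whose log2 fold change was 3.24 without it. HOXD10 and HOXD11 were also highest on day 4, at 30.7, 7.18, 8.83 and 14.9 CPM and 16.9, 4.28, 5.45 and 7.12 CPM. In the opposite direction HOXD1, at the 3′ end, was lower on day 4 than on day 2 by a ratio of 40.2 (95% counting interval 13.3 to 199) with edgeR adjusted p = 1.89e-05.

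In the HOXB cluster HOXB9 had become the highest of these genes per length, at 6.82 ± 0.51 on the log2(RPKM + 1) scale (SD, n = 4). Its CPM were 323, 249.8, 446 and 195, every library above those of day 2. HOXB13 stood at 17.6, 15.7, 4.62 and 17.3 CPM, with replicate 3 far below the other 3. HOXB6 was lower than on day 2, at 44.3, 41.6, 51.5 and 21.8 CPM, a log2 fold change of -1.11 ± 0.38 (SE, edgeR adjusted p = 0.0194) that was not called without WT day 2 replicate 2 or 4 or day 4 replicate 4 (adjusted p up to 0.0706).

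CDX1 fell on day 4 to 0.915, 1.09, 4.92 and 0.705 CPM, a log2 fold change of -4.68 ± 0.64 (SE, edgeR adjusted p = 2.93e-06). CDX2 stood at 5.19, 7.66, 65.1 and 5.22 CPM: 3 libraries had fallen far below day 2, while replicate 3 was within its range. The log2 fold change was -1.88 ± 0.74 (SE, edgeR adjusted p = 0.0368) over all libraries and -3.69 without replicate 3 (adjusted p = 0.00012), but the call was lost by DESeq2 (adjusted p = 0.074) and without WT day 2 replicate 1 or 3 or day 4 replicate 1, 2 or 4 (up to 0.12). With these groups fitted alone it was lost as well (edgeR adjusted p = 0.0791). CDX4 was not called, at 48.8, 16.9, 81.2 and 26.8 CPM, with 2 libraries below the range of day 2, 1 within it and 1 above.

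In the same 2 libraries of day 4 in which CDX2 stayed high, other genes stood apart as well. WT replicate 3 held 22.2 CPM of HOXB4 against 4.16 to 6.27 in the others, and 4.62 CPM of HOXB13 against 15.7 to 17.6. KO replicate 4 held 38.3 CPM of HOXB4 against 3.94 to 8.28 and 5.86 CPM of MEIS1 against 20.4 to 31.6. The mesenchymal marker sums given above were the lowest of their groups in these libraries, and their part in these values was not tested. With both left out 26 members were called in WT and 27 in KO between days 2 and 4.

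**Figure D3:**
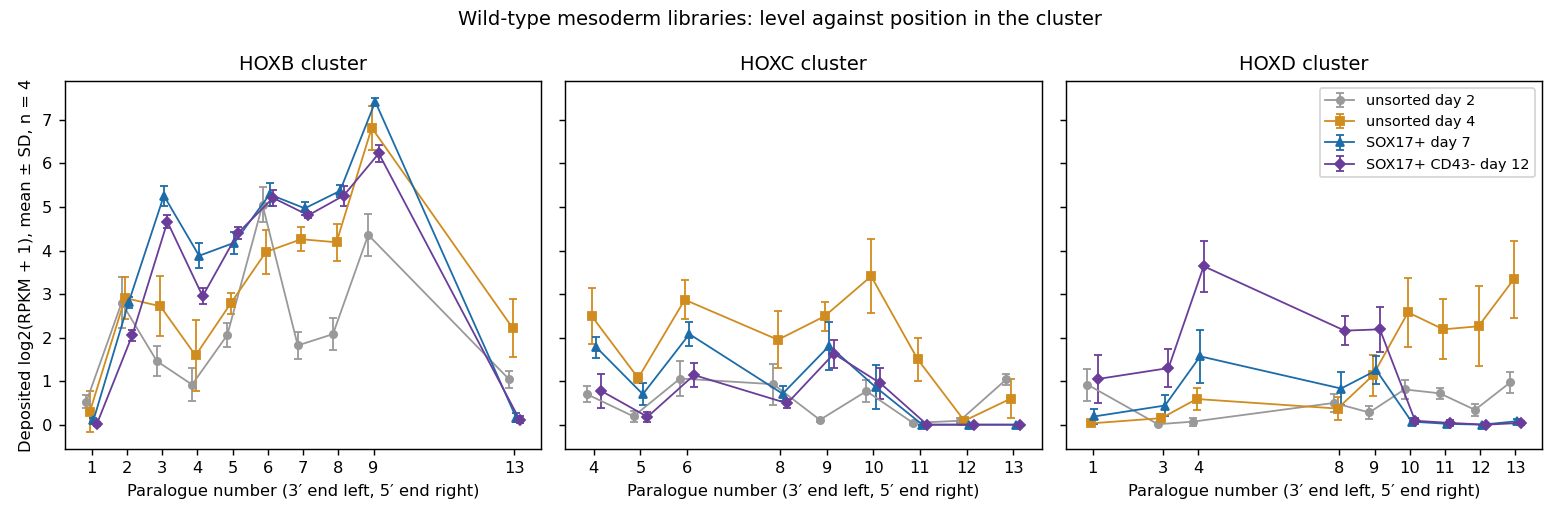
Deposited log2(RPKM + 1) (vertical axis, mean ± SD, n = 4) against paralogue number from 3′ (left) to 5′ (right) for the HOXB, HOXC and HOXD clusters in WT cells, 1 line each for unsorted day 2, unsorted day 4, SOX17+ day 7 and SOX17+ CD43- day 12. The day 4 line is the highest at HOXC10 to HOXC11 and at HOXD10 to HOXD13, the day 7 and 12 lines are near 0 at HOXC11 and HOXD10 to HOXD13, and the day 12 line is the highest at HOXD1 to HOXD9.

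MEIS2 rose most among the cofactors, from 3.26, 4.65, 2.06 and 3.01 CPM to 40.1, 55.4, 63.1 and 94.1 CPM, a log2 fold change of 4.29 ± 0.34 (SE, edgeR adjusted p = 1.28e-09). MEIS1, which is needed for definitive blood formation, stood at 24.4, 18.6, 11.4 and 24.3 CPM. PBX3 returned to 33.8, 37.7, 23.6 and 35.95 CPM, a log2 fold change of -0.96 ± 0.17 (SE, edgeR adjusted p = 6.5e-05). The groups did not overlap for MEIS2 and PBX3.

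The list of posterior axis, Wnt and FGF genes now went the other way, with 3 of 19 genes higher and 14 lower. Of all 21612 genes 5608 were called higher and 5504 lower. TBXT, the gene of the primitive streak and tail bud, fell by 8.34 ± 0.48 (SE) and WNT3A by 7.94 ± 0.56, while AXIN2 and LEF1, both Wnt target genes, rose by 1.99 ± 0.19 and 1.70 ± 0.30. Of the flanking genes EVX2, beside HOXD13, rose by 5.73 ± 0.91 and EVX1, beside HOXA13, fell by 2.48 ± 0.13. In the HOXA cluster HOXA10 rose by 3.78 ± 0.43. MLLT3, a chromatin reader known from blood stem cells, rose by 3.98 ± 0.19.

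KO libraries were tested by day on their own. Between days 0 and 2, 24 of 34 genes were higher and 1 lower, where 43.3% of all genes were called, with a median of 4.50 against 0.001. As in WT, genes silent on day 0 passed the filter only through later days, so these counts are a description. All 10 HOXB genes were higher, as were 6 of 7 HOXD genes and 1 of 8 HOXC genes. HOXB9 reached 60.9, 58.2, 45.4 and 19.9 CPM, where replicate 4 was the lowest, and HOXB6 reached 101, 105, 111 and 18.3 CPM. Without replicate 4 the count was 26. CDX2 stood at 108, 56.3, 50.2 and 71.1 CPM with replicate 4 in the middle of the range, and the ratio over day 0 was 1370 (95% counting interval 470 to 6660) with edgeR adjusted p = 2.92e-06.

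Between days 2 and 4, 23 of 34 were higher and 4 lower in KO, where 50.5% of all genes were called, with a median of 1.99 against 0.015. Some genes near 0 on day 2, such as HOXC9, passed the filter only through day 4, so this is a description. HOXC10 stood at 55.2, 13.8, 11.7 and 5.55 CPM and rose by 5.14 ± 0.65 (SE, edgeR adjusted p = 9.96e-07) on the log2 scale, and by 4.07 without replicate 1, which was far above the other 3. MEIS2 rose by 4.93 ± 0.35 (SE, edgeR adjusted p = 2.28e-10) and HOXC9 by 6.62 ± 0.46 (SE, edgeR adjusted p = 1.92e-10). CDX1 stood at 0.872, 0.840, 0.628 and 5.71 CPM, a log2 fold change of -4.51 ± 0.64 (SE, edgeR adjusted p = 4.77e-06). CDX2 stood at 4.77, 4.91, 15.4 and 55.98 CPM, with a log2 fold change of -1.81 ± 0.74 (SE, edgeR adjusted p = 0.0448) and of -3.07 without replicate 4 (adjusted p = 0.00175). The CDX2 call was lost by DESeq2 (adjusted p = 0.0902) and without KO day 2 replicate 1, 2 or 4 or day 4 replicate 1, 2 or 3 (up to 0.12). With these groups fitted alone it was lost as well (edgeR adjusted p = 0.0641).

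The direct comparison of KO with WT called none of the 34 members on day 0, 2 or 4 by edgeR, where 0% of all genes were called on each of these days. On day 2 the count over all genes was 143 with these groups fitted alone and 15 by DESeq2. At an unadjusted p under 0.05 the members numbered 0, 2 (HOXC6 and HOXC8) and 0. Median log2 fold changes were 0.05, -0.12 and -0.01, and 0 members were called by DESeq2 or limma. HOXB9, for example, stood at 317, 213, 332 and 508 CPM in KO on day 4, overlapping the WT values. The 2 lines overlapped in all tested members on days 0 and 4 and in all but 1 on day 2, where 1.02%, 2.52% and 7.63% of all genes did not overlap on days 0, 4 and 2.

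By day 7 the sorted WT SOX17+ CD34+ CD43- cells had lost the 5′ transcripts and kept or gained 3′ and central ones, relative to unsorted day 4 cultures. In all 11 of 32 genes were higher and 14 lower, where 62.8% of all genes were called. Without WT day 4 replicate 3 the counts were 12 and 16. All 7 tested genes of groups 10 to 13 were lower, with a median log2 fold change of -7.40. Genes near 0 on day 7 passed the filter on low counts only through day 4, so that count and median are a description. Of 17 genes of groups 1 to 9, 9 were higher and 3 lower, with a median of 0.74.

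HOXC11 and HOXD12 were not counted in any of the 4 day 7 libraries, at least 141-fold and at least 139-fold lower than on day 4 against the floor of 3 counts over the group (edgeR adjusted p = 6.69e-05 and edgeR adjusted p = 0.000477). HOXD11 was lower by a ratio of 279 (95% counting interval 76.9 to 2310), with edgeR adjusted p = 1.07e-05. HOXD13 stood at 0.121, 0.121, 0.0518 and 0.237 CPM on day 7, a log2 fold change of -7.40 ± 0.64 (SE, edgeR adjusted p = 5.84e-06). None of these libraries overlapped those of day 4. HOXB13 stood at 0.182, 0.848, 0.259 and 0.415 CPM, a log2 fold change of -4.99 ± 0.53 (SE, edgeR adjusted p = 2.18e-05).

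HOXB3, a 3′ gene, stood at 276, 223, 302 and 322 CPM on day 7 against 34.2, 37.1, 89.9 and 24.5 CPM on day 4, a log2 fold change of 2.60 ± 0.36 (SE, edgeR adjusted p = 0.00014). HOXB4, known for expanding blood stem cells when overexpressed, stood at 51.8, 38.5, 55.3 and 64.1 CPM, higher by 2.51 ± 0.50 (SE, edgeR adjusted p = 0.00138) on the log2 scale. Its log2 fold change was 3.42 without WT day 4 replicate 3, the highest of day 4. HOXB5, in mouse a marker of long-term blood stem cells, stood at 30.6, 29.8, 36.8 and 44.2 CPM, higher by 1.55 ± 0.17 (SE, edgeR adjusted p = 3.04e-05). Every day 7 library was above every day 4 library for these 3 genes.

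HOXD4 stood at 1.64, 1.51, 4.14 and 5.51 CPM and HOXD3, a gene linked to angiogenesis, at 0.486, 0.787, 1.92 and 2.07 CPM, with log2 fold changes of 2.08 ± 0.51 (SE, edgeR adjusted p = 0.00486) and 1.72 ± 0.58 (SE, edgeR adjusted p = 0.0247). Replicates 3 and 4 were above 1 and 2 in both genes. The HOXD3 call was lost without WT day 4 replicate 2 or 4 or day 7 replicate 3 or 4, with the adjusted p up to 0.077. HOXC genes went the other way, with 5 of 7 lower, among them HOXC6 at 9.11, 9.33, 13.1 and 14.8 CPM against 19.2, 16.6, 37.4 and 20.2 CPM on day 4.

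All 3 CDX genes were lower in the sorted cells. CDX2 stood at 2.25, 2.73, 0.932 and 1.66 CPM and CDX4 at 1.70, 2.18, 0.984 and 2.19 CPM, below every day 4 library. MEIS1 rose most of all members called higher, from 19.7 ± 6.13 (SD, n = 4) CPM to 137, 122, 136 and 167 CPM, a log2 fold change of 2.86 ± 0.22 (SE, edgeR adjusted p = 2.39e-06). MEIS3 was at 1.28, 1.45, 0.622 and 0.829 CPM against 28.6, 32.8, 18.4 and 36.2 CPM. MEIS1 and MEIS3 thus moved in opposite directions between day 4 and day 7, and neither pair of groups overlapped.

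The gate and the range of library numbers both moved with this comparison, so their parts and that of the day cannot be told apart. Summed endothelial markers were 1530 to 2430 CPM on day 4 and 10700 to 12100 CPM in the sorted cells, and mesenchymal markers 1400 to 7470 and 487 to 805 CPM. The part of the change in cell types in the HOX values was not tested. Among the other genes, HOXA4 rose by 3.18 ± 0.55 (SE) and HOXA13, the 5′ gene of its cluster, fell by 2.00 ± 0.23 on the log2 scale. PKNOX2, another TALE gene, fell by 4.69 ± 0.18. The noncoding HOXB-AS2 rose by 3.89 ± 0.39 and HOXC-AS3 fell by 4.00 ± 0.56. Of 13 tested posterior axis genes none was higher and 10 were lower, where 6228 of all 20028 genes were called lower.

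Between SOX17+ and SOX17- cells of day 7, few of these genes passed the test. In WT 1 of 28 tested members was called, where 1.6% of all genes were called, and the median log2 fold change was -0.51 against -0.009 over all genes. The called gene was HOXC8, at 0.851, 1.21, 1.09 and 1.72 CPM in SOX17+ and 2.33, 2.76, 2.72 and 6.48 CPM in SOX17- libraries, a log2 fold change of -1.55 ± 0.40 (SE, edgeR adjusted p = 0.0432). The groups did not overlap, and replicate 4 of SOX17- was far above the other 3. Without it the log2 fold change was -1.09 and the call was lost (adjusted p = 0.257), as it was without SOX17- replicate 2 or any 1 of the 4 SOX17+ libraries. In that library HOXC9 stood at 27.6 CPM against 5.37 to 6.98 in the other 3, and HOXC6 at 44.5 CPM against 16.5 to 19.2. Its endothelial marker sum was the lowest of its group. Summed mesenchymal markers were 487 to 805 CPM in SOX17+ and 1110 to 1790 CPM in SOX17- libraries of WT, and 384 to 724 and 1100 to 1550 CPM in KO, without overlap. The part of these markers in the HOXC values was not tested.

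In KO none of 28 members was called by edgeR between SOX17+ and SOX17- cells, where 0.67% of all genes were called. At an unadjusted p under 0.05 there were 9, where 1832 of all 22978 genes passed. DESeq2 and limma called 0 members, and the median was -0.50. With the replicate block 845 genes were called. HOXC4, HOXC5, HOXC6, HOXC8, CDX2, CDX4, HOXB2 and HOXB4 were then lower in SOX17+ cells, and HOXB5 and HOXB6 higher. In WT the block called HOXC4, HOXC5, HOXC6, HOXC8 and HOXC9 lower. Same-numbered libraries deviated together only weakly in some pairs (correlations from 0.0516 in KO and 0.069 in WT). By library number, the last KO SOX17- library lies beside a SOX17+ library of another replicate number. The block, which pairs by replicate number, may therefore mispair it. For 8 members the 2 KO fractions did not overlap, where 12.6% of all genes tested did not. HOXB9 was high in both WT fractions, at 426, 408, 462 and 459.5 CPM in SOX17+ and 485, 413, 522 and 570.1 CPM in SOX17- libraries.

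No member was called between KO and WT in day 7 SOX17+ or SOX17- cells by edgeR, DESeq2 or limma. The shares of all genes called by edgeR were 0.0566% and 0.0087%, 0 members passed an unadjusted p of 0.05 in either fraction, and the medians were 0.06 and -0.07. Same-numbered SOX17+ libraries of the lines deviated together. With the replicate block 435 of all genes were called, against 13 without it. Among the members 1 was then called, MEIS1, named after its values were seen. It stood at 166, 143, 162 and 187 CPM in KO against 137, 122, 136 and 167 CPM in WT, which overlap, and the paired log2 fold change was 0.24 ± 0.04 (SE, edgeR adjusted p = 0.0295).

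From day 7 to day 12 the HOXD genes of groups 1 to 9 rose in SOX17+ CD43- cells while parts of HOXB and HOXC fell. In WT 5 of 28 members were higher and 11 lower, where 17.8% of all genes were called, and the median was -0.33 against -0.006 over all genes. All 5 HOXD genes tested were higher, with a median log2 fold change of 2.10. The lower ones were 4 HOXB genes, 3 HOXC genes, both tested CDX genes, MEIS1 and MEIS3. Summed endothelial markers were 10700 to 12100 CPM on day 7 and 12100 to 15000 CPM on day 12, and their part in these values was not tested.

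HOXD4 had the highest day 12 level of the cluster per length, at 3.64 ± 0.59 on the log2(RPKM + 1) scale (SD, n = 4). Its CPM went from 1.64, 1.51, 4.14 and 5.51 on day 7 to 9.93, 28.5, 18.98 and 14.54 on day 12, a log2 fold change of 2.48 ± 0.45 (SE, edgeR adjusted p = 0.000211). HOXD8 stood at 6.63, 11.47, 11.8 and 7.51 CPM on day 12 against 1.64, 0.969, 2.02 and 4.09 CPM, higher by 2.10 ± 0.37 (SE, edgeR adjusted p = 0.000158). Every day 12 library was above every day 7 library for both genes.

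HOXD3 stood at 2.32, 8.42, 5.69 and 5.36 CPM, higher by 2.03 ± 0.49 (SE, edgeR adjusted p = 0.00436). HOXD1, which was almost absent on day 7, stood at 0.432, 3.50, 3.44 and 1.94 CPM, higher by 2.98 ± 0.73 (SE, edgeR adjusted p = 0.00506). Replicate 1 was the lowest for both. HOXD9 stood at 4.21, 11.8, 7.38 and 5.09 CPM, higher by 1.42 ± 0.40 (SE, edgeR adjusted p = 0.0137), a call lost without WT day 7 replicate 1 or day 12 replicate 2 (adjusted p up to 0.0794). The noncoding genes HAGLR and HOXD-AS2 of the same cluster rose by 2.19 ± 0.47 (SE) and 1.54 ± 0.41.

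In KO the same 5 HOXD genes were called higher, among 5 higher and 9 lower of 28 where 13.3% of all genes were called. HOXD4 stood at 12.3, 28.8, 13.3 and 28.4 CPM, higher by 2.18 ± 0.43 (SE, edgeR adjusted p = 0.000821) on the log2 scale, and HOXD3 at 4.07, 6.57, 3.69 and 8.22 CPM, higher by 2.06 ± 0.49 (SE, edgeR adjusted p = 0.00493). HOXD8 was higher by 1.97 ± 0.36 (SE, edgeR adjusted p = 0.000383). HOXD1 was higher by 2.55 ± 0.73 (SE, edgeR adjusted p = 0.0189), but leaving out KO day 7 replicate 1, 2 or 4 or day 12 replicate 2 or 4 lost that call, with the adjusted p up to 0.0782.

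Among the genes that fell in WT, HOXB9 went from 426, 408, 462 and 459.5 CPM to 163, 209.7, 219.5 and 179 CPM, yet was still the highest member per length on day 12 at 6.23 ± 0.20 on the log2(RPKM + 1) scale. In KO its log2 fold change was -1.09 ± 0.20 (SE, edgeR adjusted p = 0.000355). HOXC4 changed by -1.67 ± 0.35 (SE, edgeR adjusted p = 0.00105) in WT and -1.31 ± 0.33 (SE, edgeR adjusted p = 0.00664) in KO, and HOXC6 by -1.40 ± 0.33 (SE, edgeR adjusted p = 0.00327) and -1.05 ± 0.32 (SE, edgeR adjusted p = 0.0273). The KO call of HOXC6 was lost without KO day 7 replicate 4 or day 12 replicate 2 or 4 (adjusted p up to 0.116). It was also lost in a fit over all groups (edgeR adjusted p = 0.0527). CDX2 and CDX4 were nearly gone on day 12 in WT, lower by ratios of 63.3 (95% counting interval 17.2 to 528) and 59.3 (95% counting interval 16.1 to 496) with edgeR adjusted p = 5.9e-06 and edgeR adjusted p = 5.51e-06. MEIS1 stood at 107, 86.7, 89.3 and 122 CPM, with 3 libraries below all of day 7 and replicate 4 level with its lowest.

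KO and WT day 12 SOX17+ CD43- cells gave 0 called members of 28 by edgeR, DESeq2 and limma, where edgeR called 0.187% of all genes. HOXC4 and HOXC5 passed an unadjusted p of 0.05, the median was 0.05, and no member was without overlap between the lines, where 2.51% of all genes were. The single KO SOX17- CD43- library of day 12 allows no test. It held 222 CPM of HOXB3, 50.8 of HOXB4, 110.0 of HOXB8 and 150.5 of HOXB9. HOXD4 in it was 3.73 CPM against 12.3, 28.8, 13.3 and 28.4 CPM in KO SOX17+ CD43- libraries, below all 4. MEIS2 was 173 CPM against 45.4, 36.3, 108 and 38.8 CPM, above all 4.

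**Figure D4:**
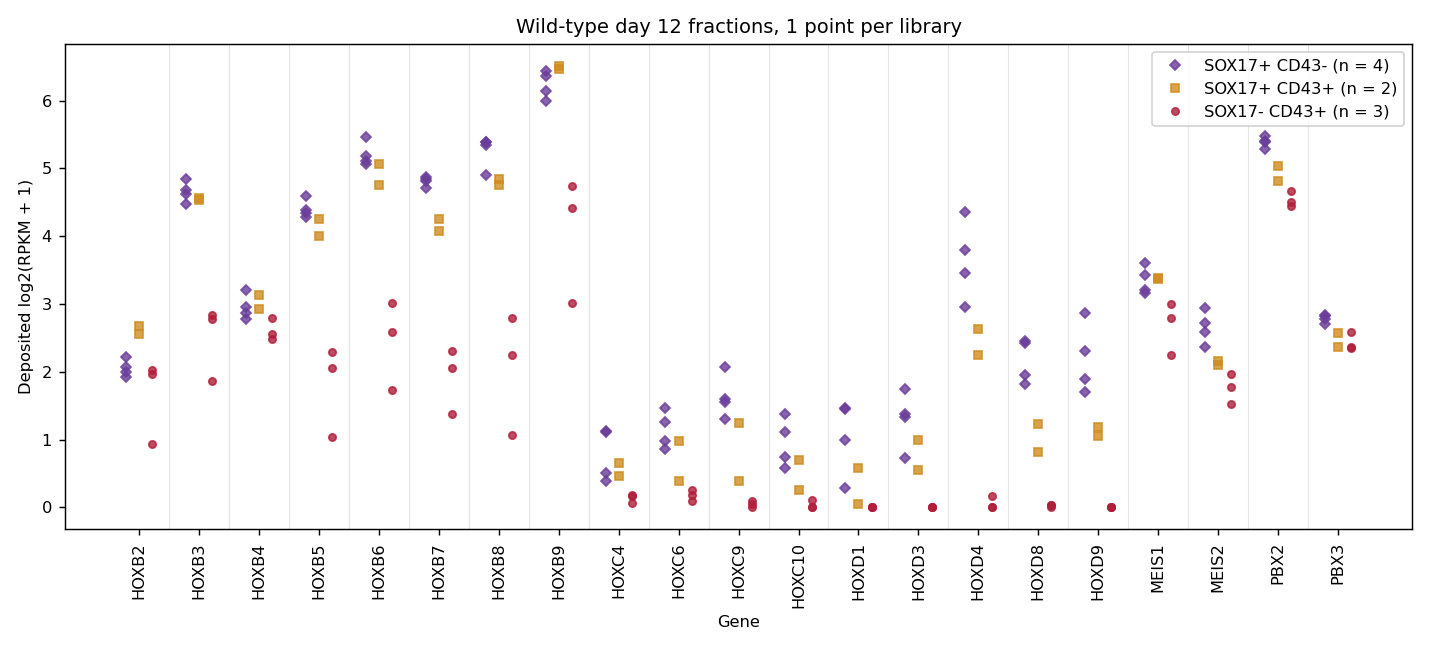
Deposited log2(RPKM + 1) (vertical axis) of 21 HOX, MEIS and PBX genes (horizontal axis) in WT day 12 libraries, 1 point per library, for SOX17+ CD43- (n = 4), SOX17+ CD43+ (n = 2) and SOX17- CD43+ (n = 3) cells. SOX17- CD43+ points are the lowest for most genes and lie near 0 for the HOXC and HOXD genes, while those of HOXB2 and HOXB4 overlap the SOX17+ CD43- points.

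WT SOX17- CD43+ blood cells of day 12 held less of most of these transcripts than SOX17+ CD43- endothelium. Of 28 members 22 were lower and none higher, where 66.2% of all genes were called and 33.9% were called lower, with a median of -2.87 against -0.023. Genes near 0 in blood cells passed the filter only through other fractions, so these are a description. The lower ones were 7 of 9 HOXB genes, all 6 HOXC genes, all 5 HOXD genes, MEIS1, MEIS2, PBX2 and PBX3. Summed endothelial markers were 12100 to 15000 CPM in the endothelium and 223 to 488 CPM in the blood cells. Blood markers were 30.2 to 53.6 and 2740 to 2840 CPM. The fractions are different cell types by gate, and the part of any contaminating cells was not tested.

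HOXD and HOXC genes were near 0 in blood cells, as with HOXC10 at 0, 0.173 and 0 CPM. HOXD9 and HOXD3 were not counted in the 3 blood libraries, at least 115-fold and at least 87.5-fold lower against the floor of 3 counts over the group (edgeR adjusted p = 1.14e-08 and edgeR adjusted p = 2.19e-07). HOXD4 stood at 0, 0.173 and 0 CPM in them, lower by a ratio of 291 (95% counting interval 99.4 to 1410) with edgeR adjusted p = 5.17e-09. HOXD8 stood at 0.0594, 0.0577 and 0 CPM, lower by a ratio of 230 (95% counting interval 63.4 to 1900) with edgeR adjusted p = 5.9e-10. HOXC9 was lower by a ratio of 59.1 (95% counting interval 20 to 288) with edgeR adjusted p = 1.1e-05. No blood library overlapped the endothelium for these genes.

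HOXB2 and HOXB4 were not called between blood cells and endothelium. HOXB4 stood at 18.2, 22.2 and 17.4 CPM in blood cells against 23.5, 22.1, 25.2 and 30.7 CPM in endothelium, overlapping by 1 library. HOXB2 stood at 6.83, 7.22 and 2.15 CPM against 7.50, 6.93, 6.59 and 8.51 CPM. Their neighbour HOXB3, whose exons overlap those of HOXB4, was at 46.1, 43.7 and 19.7 CPM against 159, 175, 184 and 207 CPM, without overlap. HOXB9 was at 66.4, 52.4 and 18.4 CPM and MEIS1 at 65.3, 76.3 and 41.2 CPM, also below every endothelial library. Replicate 3 was the lowest blood library for each of these 5 genes. In the HOXA cluster HOXA11 was lower in blood cells, with a log2 fold change of -6.52 ± 0.45 (SE).

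SOX17+ CD43+ cells lay nearer the endothelium in these genes. With 2 libraries, 4 of 28 members were called lower and none higher, where 26.5% of all genes were called and 10.9% were called lower, and the median was -0.74 against -0.013. HOXD8 stood at 2.02 and 3.56 CPM, a log2 fold change of -1.69 ± 0.47 (SE, edgeR adjusted p = 0.00802), and HOXD9 at 2.40 and 2.00 CPM, a log2 fold change of -1.63 ± 0.53 (SE, edgeR adjusted p = 0.0237). HOXB7 and PBX2 changed by -0.62 ± 0.20 (SE, edgeR adjusted p = 0.0212) and -0.41 ± 0.10 (SE, edgeR adjusted p = 0.00377) on the log2 scale. With the replicate block neither HOXB7 nor PBX2 was called (edgeR adjusted p = 0.0959 and edgeR adjusted p = 0.207). In a fit over all groups HOXD9 and HOXB7 were not called (edgeR adjusted p = 0.0569 and edgeR adjusted p = 0.12). Without the first of the 2 libraries HOXD8, HOXD9 and HOXB7 were no longer called, and without the second HOXD9, HOXB7 and PBX2 were not, with the adjusted p up to 0.14, where the lone library left is assumed to vary like the other groups. HOXB9 stood at 225 and 232 CPM and MEIS1 at 104 and 102 CPM, the first above the endothelial range and the second within it.

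Between the 2 CD43+ fractions 18 of 28 members were lower in SOX17- cells and none higher, where 37.5% of all genes were called and 22.9% were called lower. Members near the floor in SOX17- cells passed the filter only through other fractions, so this count is a description. HOXD3 and HOXD9 were at least 45-fold and at least 39.5-fold lower (edgeR adjusted p = 4.21e-05 and edgeR adjusted p = 2.43e-05), HOXD4 by a ratio of 115 (95% counting interval 38.9 to 565) with edgeR adjusted p = 3.89e-06. SOX17+ CD43+ libraries also held endothelial markers at 6250 to 6440 CPM and blood markers at 1160 to 1350 CPM, both between the other 2 fractions, and the part of a mixture in these values was not tested.

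HOX genes stayed near 0 in the endoderm protocol. No HOX gene passed the filter on low counts over its days, and of the 37 genes only CDX4, the MEIS genes and the PBX genes were tested. On day 2, 4 of these 7 were higher and 1 lower, where 55.5% of all genes were called. CDX4 went from 3.02, 3.32 and 2.37 CPM on day 0 to 0.290, 0.522 and 0.609 CPM, a log2 fold change of -2.60 ± 0.42 (SE, edgeR adjusted p = 0.000212). No day 2 library overlapped day 0. It fell further on day 4, to 3 counts in all 3 libraries, a ratio of 7.61 (95% counting interval 2.31 to 39.5) with edgeR adjusted p = 0.0153, a call lost without endoderm day 4 replicate 1 or day 2 replicate 3 (adjusted p up to 0.0545). In a fit over all groups that call was lost too (edgeR adjusted p = 0.0787).

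MEIS2, MEIS3 and PBX2 rose in endoderm on day 2. MEIS3 went from 12.9, 12.6 and 14.3 CPM to 50.3, 57.9 and 61.5 CPM on day 2, a log2 fold change of 2.09 ± 0.17 (SE, edgeR adjusted p = 2.29e-07), and was at 30.02, 31.6 and 23.4 CPM on day 7. PBX2 rose by 1.56 ± 0.13 (SE, edgeR adjusted p = 1.76e-07) on day 2. MEIS2 rose at each step, to 1.51, 1.33 and 1.04, then 14.6, 13.1 and 9.44, then 42.3, 36.5 and 42.9 CPM, with log2 fold changes of 2.56 ± 0.37 (SE, edgeR adjusted p = 4.36e-05), 3.26 ± 0.20 (SE, edgeR adjusted p = 3.35e-08) and 1.71 ± 0.16 (SE, edgeR adjusted p = 5.19e-06). No library overlapped between neighbouring days from day 2 to 7 for MEIS2, and by limma its day 2 change was not called (adjusted p = 0.212). In all, 3 of 7 were higher and 1 lower on day 4, where 42.4% of all genes were called, and 2 were higher and 1 lower on day 7, where 21.3% were called.

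**Figure D5:**
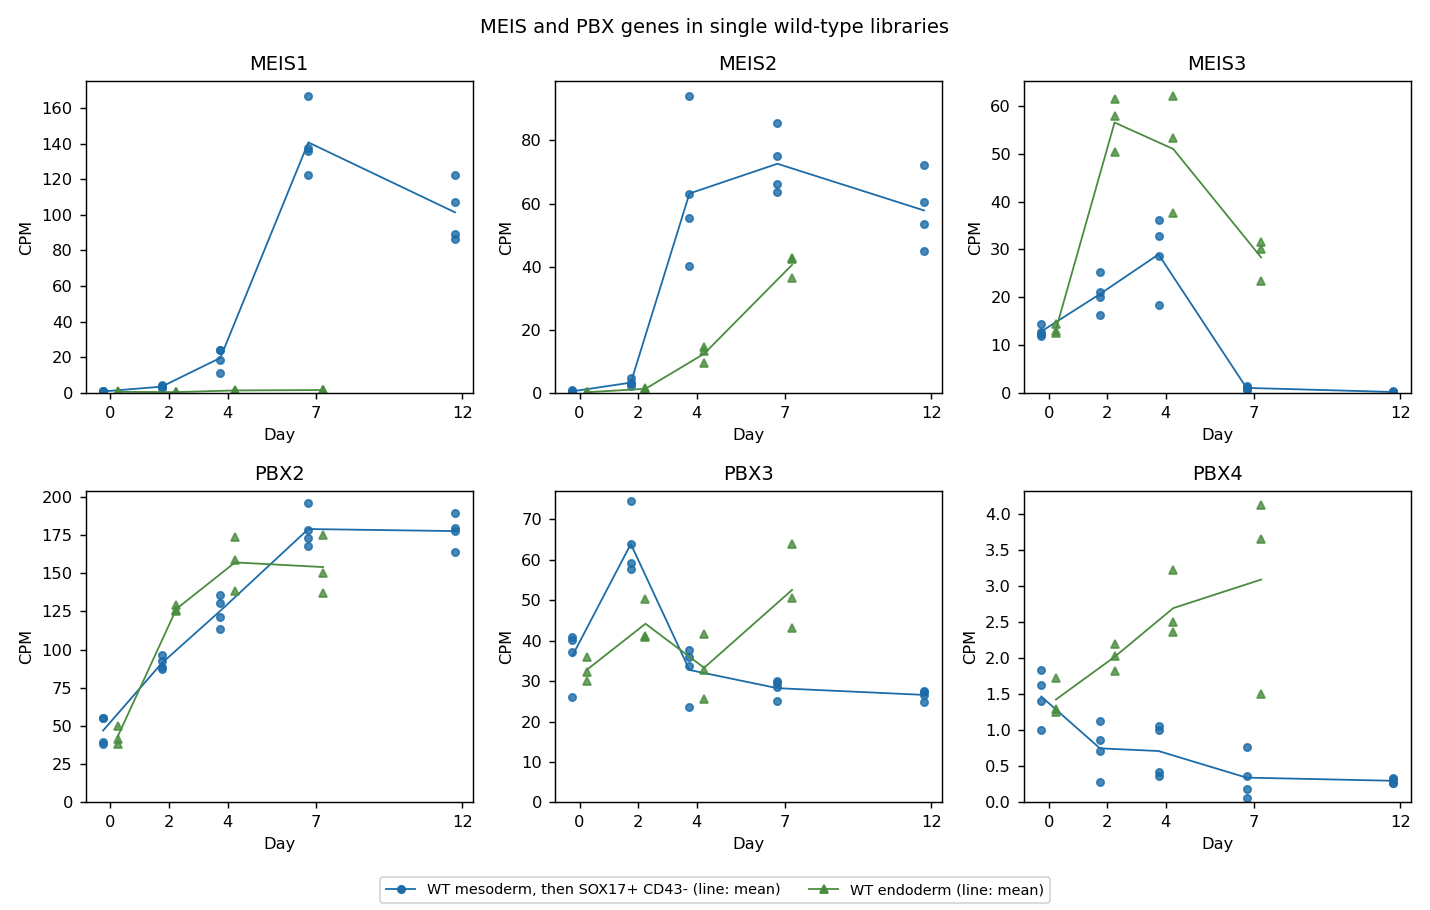
CPM (vertical axis, from 0) of MEIS1, MEIS2, MEIS3, PBX2, PBX3 and PBX4 against day in WT libraries, 1 point per library, with lines through the means of mesoderm (SOX17+ CD43- cells on days 7 and 12) and endoderm. MEIS1 climbs to day 7 in mesoderm and stays near 0 in endoderm, and MEIS3 is high in endoderm from day 2 on and near 0 in SOX17+ mesoderm cells.

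The change from day 0 differed between protocols for 14 of 34 members on day 2 (3 higher and 11 lower in endoderm), where 29.5% of all genes were called. On day 4 it differed for 19 of 34 (2 higher and 17 lower), where 40.4% were called. HOX genes passed the filter only through mesoderm, so these counts are a description. The largest differences rest on 3 counts or fewer, so genes with more counts are given, chosen after their values were seen. CDX4 differed on day 2 by -6.50 ± 0.72 (SE, edgeR adjusted p = 1.7e-06) on the log2 scale, endoderm minus mesoderm. MEIS1 differed by -2.50 ± 0.70 (SE, edgeR adjusted p = 0.0109) on day 2 and -3.40 ± 0.65 (SE, edgeR adjusted p = 0.000296) on day 4. MEIS3 differed in the other direction, by 1.41 ± 0.28 (SE, edgeR adjusted p = 0.000749) and 0.77 ± 0.27 (SE, edgeR adjusted p = 0.0299), of which the day 4 call was lost without endoderm day 0 replicate 1 or 2 or day 4 replicate 1 or 3 (adjusted p up to 0.0992). That day 4 call was also lost in a fit over all groups (edgeR adjusted p = 0.118). Without endoderm day 0 replicate 2, which held 37 HOX fragments against 27 and 13 in the other 2, the member counts were 8 and 11.

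On day 7 both protocols gave SOX17-expressing cells, with mean SOX17 at 236 CPM in endoderm and 176 CPM in sorted endothelium, and they were far apart in these genes. Protocol, gate and range of library numbers all differ between these groups, so their parts cannot be told apart. Of 26 members 22 were lower in endoderm and 3 higher, where 71.6% of all genes were called, with a median of -8.04 against -0.039. HOX genes passed the filter only through the endothelium, so these counts and the median are a description. HOXB9 was counted once in 3 endoderm libraries, a ratio of 24500 (95% counting interval 4400 to 969000) with edgeR adjusted p = 1.35e-12. HOXB6 and HOXB4 were not counted, at least 1880-fold and at least 978-fold lower (edgeR adjusted p = 9.08e-10 and edgeR adjusted p = 3.49e-09). MEIS1 stood at 1.61, 1.62 and 1.57 CPM in endoderm against 137, 122, 136 and 167 CPM.

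The 3 genes higher in endoderm were cofactors. MEIS3 was higher by 4.79 ± 0.23 (SE, edgeR adjusted p = 2.06e-09) on the log2 scale and PBX3, at 50.6, 63.8 and 43.2 CPM, by 0.91 ± 0.14 (SE, edgeR adjusted p = 6.36e-05). PBX4, at 4.13, 3.65 and 1.501 CPM, was higher by 3.16 ± 0.52 (SE, edgeR adjusted p = 0.000143). PBX2 was not called, at 150.2, 175 and 137 CPM in endoderm and 168, 178, 173 and 196 CPM in endothelium. Definitive endoderm markers summed to 17000 to 20100 CPM in endoderm and to 368 to 550 CPM in the endothelium, where FOXA2 and GSC were at 0.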

How the data were processed

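Gene-level RNA-seq was analysed in 65 libraries of 19 groups. The authors deposited raw fragment counts for 58302 genes and a second table of log2 values that behave as log2 of TMM-scaled RPKM plus 1. Per the submitters' processing notes, cutadapt 1.18, featureCounts, R 3.2.2 and GRCh38 were used. The aligner and the annotation release were not given in the sources used here. GENCODE release 29 paired 58039 gene identifiers with symbols.

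CPM were computed here after TMM scaling. Differences were tested with edgeR 4.0.16 quasi-likelihood (R 4.3.3) in 6 fits giving 24 comparisons, after filterByExpr (minimum count 10, total 15), with Benjamini-Hochberg adjustment over all genes tested and a threshold of 0.05. DESeq2 1.42.0 and limma 3.58.1 were alternatives. A fold against a group with 0 counts uses a floor of 3 counts over the group, and a group with 1 to 3 counts gives a ratio with its 95% interval, both for counting error only. Up to 6 called members of largest change in each direction per comparison are named with statistics, and up to 3 called genes of each other list. The members and lists were chosen with earlier results of these data known. The test was run on simulated counts with changes planted only in genes of higher mean count. That run does not cover members with few counts in a group. Same-numbered libraries deviated together, every pair above 0.1, for KO versus WT on day 0 (0.301 to 0.816), KO versus WT day 7 SOX17+ (0.277 to 0.526) and WT SOX17+ day 12 versus day 7 (0.165 to 0.277). No library pair within a group agreed within sampling noise (chi-square per gene 4.47 to 88.23 over 85 pairs).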

Additional observations from a re-analysis of the deposited data

Results flagged for a closer look

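In 243 pairs of a member and a group of 4 libraries, 24 held 1 library far from the other 3. The nominal rate is about 5%, or 1 in 20, but members share libraries, so these tests are not independent. Most lay in the libraries that stood apart. In WT day 4 replicate 3 they were HOXB4 at 22.2 CPM, HOXB13 at 4.62, HOXC4 at 27.1, CDX1 at 4.92 and CDX2 at 65.1 CPM. In KO day 4 replicate 4 they were HOXB4 at 38.3 and CDX1 at 5.71 CPM. KO day 2 replicate 4 had HOXB6 at 18.3 CPM, below the other 3. WT day 7 SOX17- replicate 4 had HOXB7 at 52.8, HOXC6 at 44.5, HOXC8 at 6.48, HOXC9 at 27.6, HOXC10 at 8.36 and HOXD9 at 7.07 CPM, each above the rest of its group. KO day 4 replicate 1 had HOXC10 at 55.2, HOXD4 at 2.73 and HOXD9 at 6.34 CPM, and WT day 4 replicate 1 had HOXD12 at 14.8 CPM.

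The others were spread over the sorted cells. HOXB8 was 59.6 CPM in WT day 12 SOX17+ CD43- replicate 1. In KO day 7 SOX17+ cells HOXC4 was 6.08 CPM in replicate 1, PBX3 25.5 CPM in replicate 2 and HOXC6 16.8 CPM in replicate 4. In KO day 12 SOX17+ CD43- cells MEIS1 was 89.6 CPM in replicate 2 and MEIS2 108.0 CPM in replicate 3.

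The change from day 0 differed between the endoderm and mesoderm protocols for 9 pairs of gene and day with enough counts for a fold change. On day 2 the difference, endoderm minus mesoderm on the log2 scale, was -6.50 for CDX4, -2.50 for MEIS1, 1.41 for MEIS3, 0.61 for PBX2 and 1.43 for PBX4. On day 4 it was -10.32 for HOXB9, -3.40 for MEIS1, 0.77 for MEIS3 and 1.95 for PBX4. The day 2 call of PBX4 was lost with no filter, in the fit over all groups and without single libraries (edgeR adjusted p up to 0.078). That of PBX2 was lost without endoderm day 0 replicate 2 (edgeR adjusted p = 0.0653).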

How the results depend on the processing

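Of 124 changes of single members chosen by the naming rule, not all of which are printed, 94 kept their side of the threshold under each alternative run for them (scaling, filter, DESeq2, limma, other sample sets, blocks, single libraries left out), 30 lost it under at least 1 and none reversed. Counts of called members moved by over 1.5 times in these cases. WT day 7 SOX17+ versus SOX17- (1 called) gave 5 with no filter, 3 by DESeq2, 2 by limma, 5 with a library-series block, 0 in 1 fit over all groups, 0 with these groups alone, 5 with the replicate block (HOXC4, HOXC5, HOXC6, HOXC8 and HOXC9), and 0 to 2 without single libraries. KO day 7 SOX17+ versus SOX17- (0 called) gave 3 alone and 10 with the replicate block. That block pairs libraries by replicate number. For the last KO day 7 SOX17- and the second WT SOX17+ CD43+ library this departs from the order of library numbers. KO versus WT on day 2 called 0 genes of all, against 143 with these groups alone, 111 with the replicate block and 15 by DESeq2. KO versus WT day 7 SOX17+ (0 called) gave 1 with the replicate block, under which the genes called numbered 435 in place of 13. SOX17+ CD43+ versus SOX17+ CD43- (4 called) gave 7 with no filter, 2 in 1 fit over all groups, 7 alone, 10 with the replicate block and 2 to 6 without single libraries. Endoderm day 2 versus day 0 (5) gave 3 by limma, day 4 versus day 2 (4) gave 2 to 4 without single libraries, and day 7 versus day 4 (3) gave 1 with the replicate block. The differences between protocols gave 23 by DESeq2 and 8 to 15 without single libraries on day 2 (14), and 11 to 19 without single libraries on day 4 (19). The cause of these shifts was not tested. WT SOX17+ day 12 versus day 7 with the replicate block gave 17 called members in place of 16, and 6825 genes in place of 4090. Leaving out both day 4 libraries that stand apart was chosen after seeing the data. At these depths a member with a few counts a group, such as HOXC12, cannot be resolved.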
